A study of Mus musculus with 36 samples.

Results

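Molecular chaperones and the unfolded protein response were examined in the stria vascularis of mice at 1, 9 and 26 months of age. The set held 42 genes out of 48709 in the deposited table. They were chosen by name from their known roles, though with earlier results of these data known. All 42 reached 0.1 RPKM, the read count of a gene scaled by transcript length and by library size, in at least 3 libraries and were tested among 15806 genes that did so. By compartment, 17 genes form the cytosolic heat shock class, 7 encode subunits of the cytosolic chaperonin, 3 are mitochondrial chaperones and 15 act in the endoplasmic reticulum (ER).

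RNA sequencing was done on 3 libraries per age, named A, B and C, from mice of the CBA strain by the labels and CBA/J by the study's methods. The 1-month, 9-month and 26-month mice carried no named mutation or treatment. For each library about 1000 cells were picked from the dissociated stria of 4 cochleae, taken from 2 mice without regard to sex, so that marginal, intermediate and basal cells were held together. In such pools fewer cells of a type and less RNA per cell cannot be told apart. The methods speak, at the step where libraries were made, of technical repeats of a smaller number of biological samples. Every SD, n and p-value given here therefore measures only the spread between these libraries, which may be technical. The table holds RPKM without read counts, so depth is unknown and counting error cannot be stated.

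The 26-month libraries differed among themselves by a median coefficient of variation of 0.796% to 1.4% over 450 abundant genes, as did libraries B and C at 1 month (1.19%) and A and C at 9 months (1.37%), whereas the other pairs differed by 4.13% to 8.44%. Library B at 9 months stood apart from A and C and was the lowest of its age in 25 members and the highest in 13. At 1, 9 and 26 months, markers of marginal cells summed to 2357 to 2400, 2793 to 3021 and 2775 to 2781 RPKM. Markers of intermediate cells summed to 3777 to 4021 RPKM over all ages. Dct made up most of the intermediate sum (3142 to 3513 RPKM), and Tyrp1 did not exceed 0.025 RPKM. The marginal markers had log2 fold changes between -1.50 (Esrrb) and 0.08 at 26 against 9 months. The Y-linked gene Ddx3y was at 6.0 to 7.05 RPKM at 1 month, 4.45 to 7.55 RPKM at 9 months and 12.2 to 12.3 RPKM at 26 months, so Y-linked expression was not the same at all ages, and it was entered as a covariate in 1 alternative fit. Fitted beside the age means, that covariate took its slope from differences between libraries of the same age. For Ddx3y these were widest at 9 months, so the fit need not be independent of library B there. Mitochondrial genes made up 10.4% to 13.1% of the summed RPKM at 1 month, 5.33% to 8.44% at 9 months and 9.26% to 9.64% at 26 months.

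Chaperones bind unfolded or partly folded proteins and keep them from aggregating. The cytosolic heat shock proteins are induced when heat shock factor 1, encoded by Hsf1, binds heat shock elements in their promoters after proteins have become damaged. In the ER, BiP (Hspa5), GRP94 (Hsp90b1), the lectin chaperones and the protein disulfide isomerases fold secreted and membrane proteins. When that capacity is exceeded, the sensors IRE1 (Ern1), ATF6 (Atf6) and PERK start the unfolded protein response. PERK slows protein synthesis, and the transcription factors XBP1, ATF4 and CHOP (Ddit3) raise chaperones or promote cell death. The stria vascularis secretes potassium into the endolymph with densely packed membrane pumps and channels and has a high metabolic rate.

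The promoters were searched for the elements through which these responses act, and the sequences of the members discussed most are shown first. RefSeq windows of the build GRCm38.p6, running from 250 bases before to 50 bases after a start site, matched 34 of the 42 members. A heat shock element core, GAANNTTC or TTCNNGAA on either strand with N for any base, was present in 12 of these 34 members, against 17.0% of 27025 genes with such windows. The 12 were 8 of 12 cytosolic genes (Bag3, Dnaja1, Dnajb4, Hspa1a, Hspa1b, Hspb1, Hspb8 and Hsph1), 2 of 6 chaperonin genes (Cct2 and Cct5), both mitochondrial genes with a window (Hspd1 and Hspe1) and none of 14 ER genes. The 3-unit form, GAANNTTCNNGAA or TTCNNGAANNTTC, overlaps the core and was found in Hspd1, Hspe1 and Hsph1, against 0.662% of all genes. These matches are descriptions of letters in a window and say nothing of whether a factor was bound.

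The 250 bases before the start are shown for the Hsp70 genes Hspa1a (chr17:34972157-34972406, - strand) and Hspa1b (chr17:34959239-34959488, - strand), which had the largest falls of any member at 26 against 9 months, for the small heat shock protein gene Hspb1 (chr5:135887669-135887918, + strand), and for the mitochondrial co-chaperonin gene Hspe1 (chr1:55087898-55088147, + strand). Each is written from 5′ to 3′ along the gene, with heat shock element matches in capitals.
Hspa1a: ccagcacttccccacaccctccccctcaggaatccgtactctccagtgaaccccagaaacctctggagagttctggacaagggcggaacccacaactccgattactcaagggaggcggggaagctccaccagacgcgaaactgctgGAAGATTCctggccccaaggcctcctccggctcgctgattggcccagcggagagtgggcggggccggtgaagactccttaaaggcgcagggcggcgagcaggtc
Hspa1b: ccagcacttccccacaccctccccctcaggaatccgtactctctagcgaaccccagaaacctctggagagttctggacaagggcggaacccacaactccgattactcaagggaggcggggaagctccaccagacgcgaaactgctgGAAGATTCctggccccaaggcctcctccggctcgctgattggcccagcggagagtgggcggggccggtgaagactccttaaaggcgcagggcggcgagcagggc
Hspb1: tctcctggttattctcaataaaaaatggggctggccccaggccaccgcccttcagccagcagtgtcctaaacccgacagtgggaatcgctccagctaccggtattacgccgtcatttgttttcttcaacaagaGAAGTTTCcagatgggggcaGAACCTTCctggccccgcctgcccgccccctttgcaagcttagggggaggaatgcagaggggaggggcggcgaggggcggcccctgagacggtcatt
Hspe1: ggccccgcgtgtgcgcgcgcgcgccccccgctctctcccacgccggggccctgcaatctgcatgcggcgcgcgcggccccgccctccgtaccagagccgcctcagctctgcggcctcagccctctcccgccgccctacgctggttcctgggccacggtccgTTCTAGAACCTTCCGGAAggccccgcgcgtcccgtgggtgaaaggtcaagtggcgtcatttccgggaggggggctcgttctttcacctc

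The Hspa1a and Hspa1b promoters were identical at 247 of 250 bases, and the single core of each lay at the same place, beginning 104 bases before the start. They differed by C-207T, T-204C and T-2G, given as the base of Hspa1a, the position counted back from the start and the base of Hspa1b. Hspb1 held cores beginning 117 and 97 bases before its start. Hspe1 and Hspd1 run in opposite directions from a shared promoter, and the run of heat shock units in capitals in Hspe1, at chr1:55088059-55088076, is the one found in the Hspd1 window as well. No core was found in the windows of Dnajb1.

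The ER stress element, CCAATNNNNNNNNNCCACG on either strand, was found in 6 of the 14 ER members with a window and in no other member, against 0.137% of all genes. The 6 were Calr, Canx, Dnajc3, Hsp90b1 (with an element on each strand), Hspa5 and Pdia6. They are shown so that the shared ends and the differing middle can be compared, each read along the strand on which it begins with the CCAAT box, with its fixed letters in capitals.
Calr: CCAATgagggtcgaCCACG
Canx: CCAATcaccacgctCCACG
Dnajc3: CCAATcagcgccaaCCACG
Hsp90b1: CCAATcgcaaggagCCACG
Hsp90b1: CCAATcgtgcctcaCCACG
Hspa5: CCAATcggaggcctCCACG
Pdia6: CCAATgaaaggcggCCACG
The 7 elements lay at chr8:84847075-84847093 (Calr), chr11:50325800-50325818 (Canx), chr14:118937827-118937845 (Dnajc3), chr10:86705638-86705656 and chr10:86705533-86705551 (Hsp90b1), chr2:34772025-34772043 (Hspa5) and chr12:17266491-17266509 (Pdia6). They began between 212 and 65 bases before the start. An ATF4 composite element, TGATGNAA on either strand, was found in Herpud1 alone, against 4.51% of all genes.

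The levels of the members covered a wide range. At 9 months the highest means were those of the small heat shock protein Cryab (730.5 ± 30.3 RPKM, SD, n = 3), the Hsp90 gene Hsp90ab1 (498.7 ± 18.9 RPKM) and the constitutive Hsp70 gene Hspa8 (265.3 ± 8.05 RPKM). The lowest was Ern1, which encodes the ER stress sensor IRE1, at 1.54 ± 0.0144 RPKM. The plot of all members in the 9 libraries gives each gene relative to its own mean.

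**Figure D1:**
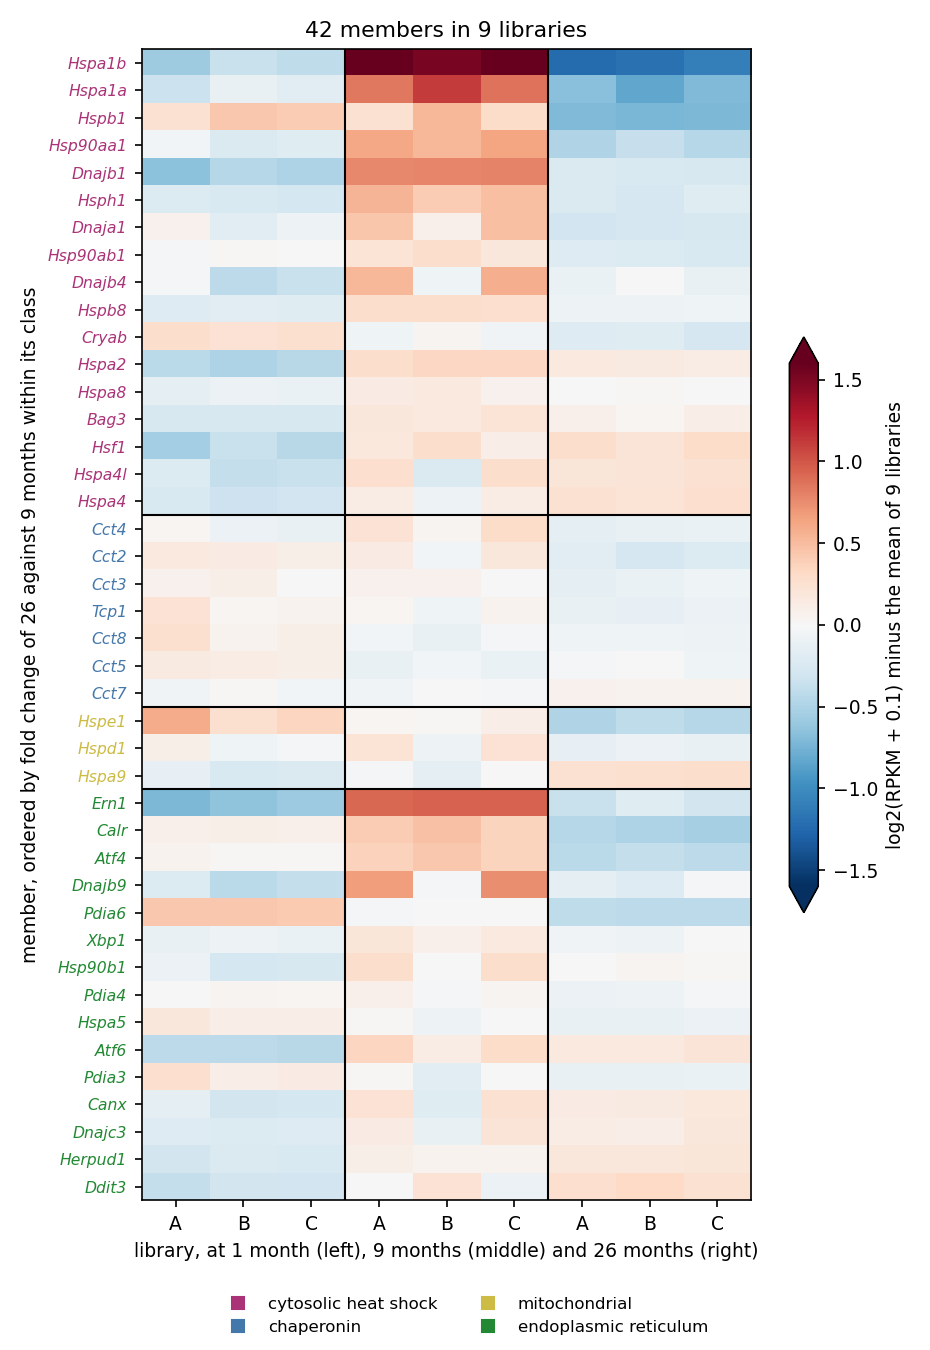
Heat map of log2(RPKM + 0.1) of the 42 members (rows, grouped by class and coloured by it) in the 9 libraries (columns, 3 per age), each row given relative to its mean over the 9 libraries. Red is above and blue below that mean; Hspa1b, Hspa1a, Dnajb1 and Ern1 are red in all 3 libraries at 9 months and blue or pale at 1 and 26 months.

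The comparison of 26 with 9 months addressed what happens in late life, that of 9 with 1 month the change into middle age, and that of 26 with 1 month the whole span. Genes were tested with limma on log2(RPKM + 0.1) in a fit of all 9 libraries and called where the log2 fold change was 1 or more in size and the p-value, adjusted over all 15806 genes by the Benjamini-Hochberg method, did not exceed 0.10. The comparisons share libraries, so a member high at 9 months alone is higher in one and lower in another by construction.

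At 26 against 9 months, 6 members fell and 0 rose, where 4.05% of all genes tested fell and 3.28% rose. The 6 were the cytosolic genes Hspa1b, Hspa1a, Hspb1, Hsp90aa1 and Dnajb1 and the ER sensor gene Ern1. At 9 against 1 month, 4 members rose and 0 fell, where 10.1% of all genes rose and 1.47% fell. These 4 were Hspa1b, Ern1, Dnajb1 and Hspa1a. At 26 against 1 month, 1 member, Hspb1, fell and 0 rose, where 2.51% of all genes fell and 9.92% rose. Among all genes tested, 1594 rose and 233 fell at 9 against 1 month, but 898 rose and 343 fell with median of ratios scaling, 629 and 296 with the length trend removed and 531 and 464 with quantile normalization. At 26 against 1 month 1568 rose and 396 fell, but 1008 rose and 613 fell with median of ratios scaling, 882 and 509 with the length trend removed and 802 and 740 with quantile normalization. With the adjusted p alone and no fold threshold, 27 members were lower and 5 higher at 26 than at 9 months, with 33.7% of all genes lower and 29.0% higher. By the same looser rule 28 members were higher and 7 lower at 9 months than at 1 month, against 54.7% and 17.4% of all genes, and 17 were higher and 19 lower at 26 months than at 1 month, against 52.7% and 21.2%.

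**Figure D2:**
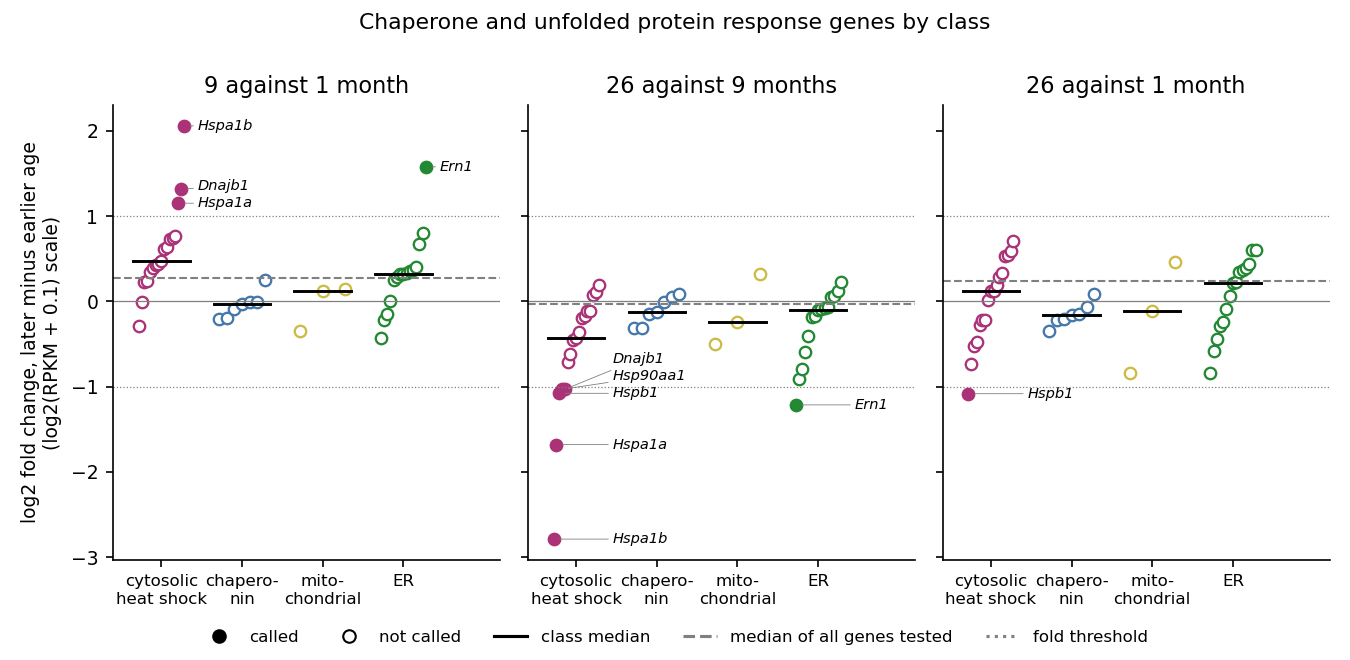
Log2 fold changes of the 42 members for the 3 comparisons, later minus earlier age, by class, with filled points for called members, a black line for each class median and a dashed line for the median of all genes tested. At 26 against 9 months the cytosolic class has a median of -0.43 and the ER class one of -0.10, and 5 of the 6 called members are cytosolic.

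Among the classes, the cytosolic heat shock genes had a median log2 fold change of -0.43 at 26 against 9 months, with 14 of 17 below 0, whereas the median of all genes was -0.03. The chaperonin median was -0.12, the mitochondrial median -0.24 and the ER median -0.10. At 9 against 1 month the medians were 0.47 for the cytosolic class, -0.04 for the chaperonin, 0.13 for the mitochondrial class and 0.32 for the ER class. The mitochondrial median turned negative with median of ratios scaling (-0.10) and with the length trend removed (-0.16). The median of all genes was itself 0.27 in that comparison and 0.24 at 26 against 1 month, and with the length trend removed it was -0.01 at 9 against 1 month, so small positive changes against 1 month lie within a shift that most genes shared and that depends on the scaling. Relative to all genes the 9 against 1 month medians were 0.20, -0.31, -0.15 and 0.05. At 26 against 1 month they were -0.13, -0.40, -0.36 and -0.03. The cytosolic median of 0.12 at 26 against 1 month turned negative with median of ratios scaling, with the length trend removed and with a Y-linked covariate. All 3 values at 9 months lay above all 6 values at the other ages in 11 of 17 cytosolic genes, 1 of 7 chaperonin genes, 0 of 3 mitochondrial genes and 5 of 15 ER genes, and in 22.3% of all genes tested. Absence of overlap between a pair of ages was common. Of 15806 genes tested, 4604 were higher and 5146 lower without overlap at 26 against 9 months. The counts were 7961 and 2372 at 9 against 1 month and 8381 and 3435 at 26 against 1 month.

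The inducible Hsp70 genes, whose products refold damaged proteins, had the largest falls at 26 against 9 months. Hspa1b (chr17:34956436-34959238, - strand) had 13.9, 16.1 and 15.65 RPKM in libraries A, B and C at 1 month, 65.0, 59.5 and 66.6 RPKM at 9 months and 8.73, 9.00 and 9.68 RPKM at 26 months. The 9-month libraries stood far above both other ages, and the 26-month libraries lay below all of the 1-month ones. At 26 against 9 months it fell 6.91-fold (log2 fold change -2.79, SE 0.07, limma adjusted p = 7.21e-09), and at 9 against 1 month it rose 4.17-fold (log2 fold change 2.06, adjusted p = 3.45e-08). At 26 against 1 month its log2 fold change was -0.73, short of the threshold.

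Hspa1a (chr17:34969190-34972156, - strand) followed the same order at lower levels. It had 10.1, 11.9 and 11.45 RPKM at 1 month, 23.1, 28.05 and 23.65 RPKM at 9 months and 8.05, 7.20 and 7.83 RPKM at 26 months, with no overlap between ages. It fell 3.20-fold at 26 against 9 months (log2 fold change -1.68, SE 0.09, limma adjusted p = 4.99e-07) and rose 2.22-fold at 9 against 1 month (log2 fold change 1.15, adjusted p = 2.69e-06). The rise missed the fold threshold after median of ratios scaling (0.92) and quantile normalization (0.98).

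Hspa1a and Hspa1b lie side by side on chromosome 17 and are near copies. Their coding sequences are identical at 1915 of 1926 aligned bases, and 47.1% of the 100-base windows of the Hspa1a transcript also occur in Hspa1b, so how reads were divided between them is uncertain. Where shared reads were counted for either gene, the sum of the 2 genes depends little on that division. Whether any such reads were left out is not stated in the sources used here. The sum was 26.4 ± 2.08 RPKM at 1 month, 88.6 ± 1.44 RPKM at 9 months and 16.8 ± 0.651 RPKM at 26 months (SD, n = 3). The ratio of Hspa1b to Hspa1a was 1.37, 2.58 and 1.19 at the 3 ages.

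**Figure D3:**
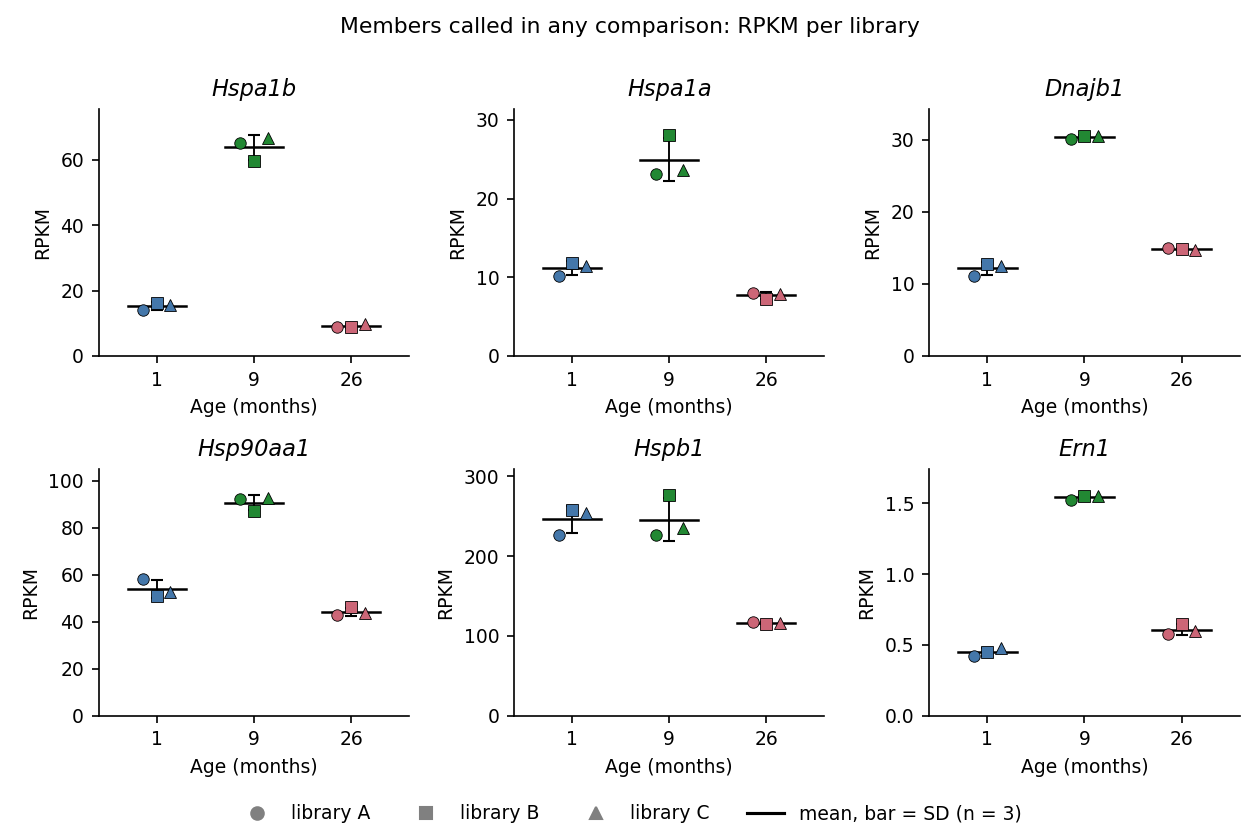
RPKM of the 6 members called in any comparison in each library (points) at 1, 9 and 26 months, with the mean (line) and SD (bar, n = 3). Hspa1b, Hspa1a, Dnajb1, Hsp90aa1 and Ern1 are highest in all 3 libraries at 9 months, whereas Hspb1 has overlapping values at 1 and 9 months and about 116 RPKM at 26 months.

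The constitutive Hsp70 gene Hspa8, which folds new proteins in unstressed cells, was not called. It had 220.9, 230.1 and 226.6 RPKM at 1 month, 267.2, 272.1 and 256.4 RPKM at 9 months and 244.0, 247.1 and 243.9 RPKM at 26 months, a log2 fold change of -0.11 at 26 against 9 months. The inducible genes together amounted to 0.117 ± 0.00694 of Hspa8 at 1 month, 0.334 ± 0.0157 at 9 months and 0.0687 ± 0.00308 at 26 months. Hspa2, best known as a testis chaperone, was at 7.33 ± 0.0764 RPKM at 26 months, against 8.30 ± 0.152 RPKM at 9 months and 4.825 ± 0.132 RPKM at 1 month. Its log2 fold changes were 0.77 at 9 against 1 month and 0.59 at 26 against 1 month, neither of them called.

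Of the Hsp70 cofactors, 1 was called. Dnajb1 (chr8:83608193-83612653, + strand), the Hsp40 J protein that hands clients to Hsp70, had 11.2, 12.8 and 12.5 RPKM at 1 month, 30.1, 30.4 and 30.55 RPKM at 9 months and 14.9, 14.8 and 14.7 RPKM at 26 months. The 9-month values lay above all others, and the 26-month values lay above those at 1 month. Dnajb1 fell 2.04-fold at 26 against 9 months (log2 fold change -1.03, SE 0.05, limma adjusted p = 4.13e-07) and rose 2.49-fold at 9 against 1 month (log2 fold change 1.32, adjusted p = 7.07e-08). The late fall sat at the fold threshold and missed it with a pseudocount of 1 (-0.99) and with a Y-linked covariate (-0.96).

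The nucleotide exchange factor Hsph1 had a mean of 9.78 ± 0.275 RPKM at 26 months, against 16.0 ± 0.752 RPKM at 9 months and 9.63 ± 0.208 RPKM at 1 month (SD, n = 3), a log2 fold change of -0.71 at 26 against 9 months that was not called. Dnaja1, another J protein, was at 19.6 ± 0.312 RPKM at 26 months, against 30.3 ± 4.52 RPKM at 9 months. The related exchange factors Hspa4 and Hspa4l were not called, at 16.0 ± 0.277 and 55.5 ± 1.15 RPKM at 26 months, against 14 ± 1.14 and 52.0 ± 9.80 RPKM at 9 months, with log2 fold changes of 0.19 and 0.11. Both of these signs turned with a Y-linked covariate, and that of Hspa4l without library B at 9 months. Dnajb4 overlapped between all ages. Its log2 fold change of -0.43 at 26 against 9 months became -1.06, past the threshold, with the Y-linked covariate.

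Hsp90 folds kinases and steroid receptors late in their maturation, through a stress-inducible alpha form (Hsp90aa1) and an abundant constitutive beta form (Hsp90ab1). Hsp90aa1 (chr12:110690605-110702728, - strand) had 58.2, 51.2 and 52.6 RPKM at 1 month, 92.3, 87.1 and 92.8 RPKM at 9 months and 43.0, 46.3 and 43.65 RPKM at 26 months. All 9-month values lay above the rest and all 26-month values lay below. It fell 2.04-fold at 26 against 9 months (log2 fold change -1.03, SE 0.06, limma adjusted p = 6.50e-07), and its log2 fold change of 0.75 at 9 against 1 month was not called.

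Hsp90ab1 had 416.6, 430.2 and 424.9 RPKM at 1 month, 496.2, 518.8 and 481.2 RPKM at 9 months and 367.6, 366.2 and 359.7 RPKM at 26 months. The order of the ages was that of Hsp90aa1 with a smaller spread, and the log2 fold change of -0.45 at 26 against 9 months was not called. The ratio of the alpha to the beta form was 0.127 ± 0.0108 at 1 month, 0.182 ± 0.0129 at 9 months and 0.122 ± 0.00473 at 26 months.

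Hspb1 (chr5:135887919-135889563, + strand), the small heat shock protein HSP27 that holds unfolded clients and protects actin filaments, was the only member called against both earlier ages. It had 226.4, 257.2 and 253.8 RPKM at 1 month, 226.3, 276.2 and 234.4 RPKM at 9 months and 117.0, 114.7 and 115.7 RPKM at 26 months. The 1-month and 9-month values overlapped, and the 26-month values were near 0.47 of either. Hspb1 fell 2.11-fold at 26 against 9 months (log2 fold change -1.08, SE 0.08, limma adjusted p = 3.46e-06) and 2.12-fold at 26 against 1 month (log2 fold change -1.08, adjusted p = 1.69e-06). Both falls sat near the fold threshold. The first missed it without library B at 9 months (-0.99) and with a Y-linked covariate (-0.81), and the second missed it with quantile normalization (-0.91), with the length trend removed (-0.96) and with the covariate (-0.78).

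Cryab, which encodes alphaB-crystallin, had the highest level of any member and means of 889.8 ± 19.2 RPKM at 1 month, 730.5 ± 30.3 RPKM at 9 months and 637.6 ± 17.9 RPKM at 26 months (SD, n = 3). Its values did not overlap between ages, and its log2 fold changes of -0.20 at 26 against 9 months and -0.48 at 26 against 1 month were not called. Hspb8 and its partner Bag3, which send damaged proteins to autophagy, had log2 fold changes of -0.35 and -0.11 at 26 against 9 months. Hsf1, the regulator of the heat shock genes, was not called. It was at 26.0 ± 0.810 RPKM at 26 months, against 24.7 ± 1.54 RPKM at 9 months, with overlapping values, and at 15.9 ± 1.00 RPKM at 1 month.

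Markers of other cell types that such pools could hold also differed between ages. The summed level of 8 fibrocyte markers was 130.1 to 132.1 RPKM at 1 month, 557.9 to 595.1 RPKM at 9 months and 258.8 to 260.7 RPKM at 26 months, and 6 of 8 fell at 26 against 9 months. The summed level of 5 basal cell markers was 339.6 to 352.1 RPKM at 1 month, 792.0 to 830.9 RPKM at 9 months and 370.6 to 375.1 RPKM at 26 months, and 4 of 5 fell. Gjb2 made up most of the basal cell sum (718.5 to 752.25 RPKM at 9 months). The summed level of 8 macrophage markers was 165.2 to 169.8, 343.8 to 353.2 and 1127 to 1145 RPKM at the 3 ages, and 5 of them rose at 26 against 9 months. Lyz2 made up most of the macrophage sum at 26 months (937.7 to 960.4 RPKM). Of these lists, no marker was at 0 in all libraries of an age. Neutrophil and red cell markers summed to 2680 to 2821 RPKM at 1 month, 328.8 to 406.3 RPKM at 9 months and 593.7 to 624.9 RPKM at 26 months, and 8 of 8 fell at 9 against 1 month. Endothelial and pericyte markers summed to 24.6 to 25.0 RPKM at 1 month, 50.3 to 60.3 RPKM at 9 months and 47.8 to 49.0 RPKM at 26 months. The sums of the fibrocyte, basal cell, and endothelial and pericyte markers were thus highest at 9 months, as was the marginal sum given above. However, 2 of the 8 fibrocyte markers, Lum and Col1a2, had higher means at 1 month. Coch made up most of the fibrocyte sum at 9 months (334.6 ± 24.1 RPKM, SD, n = 3). The part of these cell types in the results was not tested.

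Immediate early genes, induced rapidly by many stimuli including tissue dissociation, took another course at 26 against 9 months, but not at 9 against 1 month. In that earlier comparison 13 of 14 tested had log2 fold changes above 0. Of these genes 4 rose and 0 fell, against 10.1% and 1.47% of all genes. Their summed level over 15 genes was 211.9 to 232.9 RPKM at 1 month, 268.7 to 276.8 RPKM at 9 months and 478.2 to 489.1 RPKM at 26 months, and of 14 tested 8 rose and 1, Klf4, fell at 26 against 9 months. Klf4 had 5.5 to 6.0 RPKM at 1 month, 16.575 to 17.075 RPKM at 9 months and 5.55 to 6.0 RPKM at 26 months. Fosb was listed at 0 in all libraries at 1 month. The summed level of these genes was thus highest at 26 months, and the part of cell preparation in either course was not tested.

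The chaperonin TRiC folds actin and tubulin in a closed chamber of paired rings, and 7 of its subunit genes were members. None was called in any comparison. With 4.05% of all genes lower and 3.28% higher at 26 against 9 months, a list of 7 genes without a call is near the background, and no difference from the other classes was tested. Tcp1, the alpha subunit, had 26.95, 23.5 and 23.8 RPKM at 1 month, 23.6, 22.0 and 24.0 RPKM at 9 months and 21.2, 21.05 and 21.6 RPKM at 26 months. Its 26-month values lay just below those at 9 months, with a log2 fold change of -0.12. Across the 7 subunits the log2 fold changes ran between -0.32 (Cct4) and 0.09 (Cct7) at 26 against 9 months, between -0.21 (Cct5) and 0.25 (Cct4) at 9 against 1 month, and between -0.35 (Cct2) and 0.09 (Cct7) at 26 against 1 month. By summed level the 7 subunits held between 285.8 and 316.9 RPKM in all libraries, the narrowest span of the 4 classes in relative terms.

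None of the 3 mitochondrial chaperones was called, and a list of 3 genes without a call is near the background of all genes. Hspe1 (HSP10), the lid of the mitochondrial chaperonin, had 25.95, 20.6 and 21.9 RPKM at 1 month, 17.55, 17.4 and 18.6 RPKM at 9 months and 12.3, 13.0 and 12.55 RPKM at 26 months. The ages did not overlap, and its level was lower at each later age, with log2 fold changes of -0.50 at 26 against 9 months and -0.84 at 26 against 1 month, neither of them called. The second reached -1.05 with median of ratios scaling and -1.01 with a Y-linked covariate, past the threshold.

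Hspd1 (HSP60), which forms the barrel of the same chaperonin and shares the promoter shown above, had 41.5, 36.9 and 38.1 RPKM at 1 month, 45.1, 36.7 and 45.8 RPKM at 9 months and 35.35, 36.3 and 35.7 RPKM at 26 months. It was not called, and libraries A and C at 9 months lay above all others, while library B at 9 months lay below all 1-month values. The ratio of Hspe1 to Hspd1 was 0.586 ± 0.0350 at 1 month, 0.423 ± 0.0451 at 9 months and 0.352 ± 0.00535 at 26 months. Hspa9 (mortalin), the mitochondrial Hsp70 that pulls in imported proteins, was at 83.3 ± 0.922 RPKM at 26 months, against 66.8 ± 3.51 RPKM at 9 months and 60.4 ± 2.51 RPKM at 1 month. Its log2 fold change of 0.32 at 26 against 9 months was the most positive of the 42 members.

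In the ER none of the chaperones was called. So short a list without a call is near the background at 26 against 9 months, where 4.05% of all genes fell and 3.28% rose. Hspa5, which encodes BiP, had 235.3, 223.1 and 222.6 RPKM at 1 month, 209.6, 195.5 and 208.3 RPKM at 9 months and 191.8, 191.7 and 194.1 RPKM at 26 months. Each later age was lower as deposited, with no overlap, which was common among all genes tested. The log2 fold changes were -0.09 at 26 against 9 months (limma adjusted p = 0.103), -0.15 at 9 against 1 month and -0.24 at 26 against 1 month. The signs against 1 month turned with quantile normalization (0.07 and 0.02). Hsp90b1 (GRP94), its partner, was at 107.1 ± 2.02 RPKM at 26 months, against 121.3 ± 12.8 RPKM at 9 months, with overlapping values, and Pdia4 and Pdia3 had log2 fold changes of -0.10 and -0.07 with overlapping values.

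Other ER members had log2 fold changes closer to the threshold without reaching it, and they were picked out here after their values were seen. Calr, the calcium-binding lectin chaperone calreticulin, was at 111.2 ± 2.86 RPKM at 26 months, against 208.4 ± 8.09 RPKM at 9 months and 166.5 ± 1.05 RPKM at 1 month (SD, n = 3), with log2 fold changes of -0.91 and -0.58. Its membrane-bound counterpart Canx (calnexin) was at 104.0 ± 1.19 RPKM at 26 months, against 101.3 ± 16.6 RPKM at 9 months and 79.5 ± 4.47 RPKM at 1 month, and the sign of its log2 fold change of 0.05 at 26 against 9 months turned with the Y-linked covariate and without library B at 9 months. The ratio of Calr to Canx was thus 2.10 ± 0.121 at 1 month, 2.11 ± 0.462 at 9 months and 1.07 ± 0.0397 at 26 months.

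Pdia6, a protein disulfide isomerase, was lower at each later age, at 49.0 ± 0.194 RPKM at 26 months, against 65.0 ± 0.751 RPKM at 9 months and 87.95 ± 0.451 RPKM at 1 month. Its log2 fold change at 26 against 1 month was -0.84, which passed the threshold with median of ratios scaling (-1.05) and with the length trend removed (-1.06). The 6 genes with the ER stress element shown above had log2 fold changes between -0.91 (Calr) and 0.07 (Dnajc3) at 26 against 9 months, and none was called. For 6 genes that is near the background, where 4.05% of all genes fell and 3.28% rose.

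Of the 5 sensor and transcription factor genes of the response, Ern1 alone was called. Ern1 (chr11:106394650-106487852, - strand), named here although its mean over the 9 libraries was below 1 RPKM, had 0.425, 0.45 and 0.475 RPKM at 1 month, 1.525, 1.55 and 1.55 RPKM at 9 months and 0.575, 0.65 and 0.60 RPKM at 26 months. All 9-month values were more than 2 times any other. Ern1 fell 2.32-fold at 26 against 9 months (log2 fold change -1.21, SE 0.07, limma adjusted p = 1.49e-06) and rose 2.99-fold at 9 against 1 month (log2 fold change 1.58, adjusted p = 1.74e-07). With a pseudocount of 1, which shrinks changes of low genes, the 2 values were -0.66 and 0.81 and were not called.

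Xbp1, whose mRNA the IRE1 enzyme splices, had 78.25, 79.9 and 78.3 RPKM at 1 month, 96.9, 89.4 and 94.4 RPKM at 9 months and 81.65, 80.3 and 84.7 RPKM at 26 months. Its 9-month values lay above the others, and the log2 fold change of -0.19 at 26 against 9 months was not called. Gene totals do not show which share of the Xbp1 mRNA was spliced.

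Atf4, the factor translated when PERK slows protein synthesis, was at 30.2 ± 0.496 RPKM at 26 months, against 52.6 ± 1.65 RPKM at 9 months and 41.1 ± 0.679 RPKM at 1 month, with no overlap and a log2 fold change of -0.80 at 26 against 9 months that was not called. Ddit3 (CHOP), a factor downstream of ATF4 that promotes cell death, did not share this course. It had 30.1, 32.0 and 31.8 RPKM at 1 month, 39.2, 46.1 and 36.8 RPKM at 9 months and 47.2, 49.1 and 46.5 RPKM at 26 months. The 26-month values lay above all others, with log2 fold changes of 0.23 at 26 against 9 months and 0.60 at 26 against 1 month, neither of them called. The sensor gene Atf6 was at 8.54 ± 0.161 RPKM at 26 months, against 9.05 ± 0.751 RPKM at 9 months and 5.61 ± 0.0520 RPKM at 1 month.

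**Figure D4:**
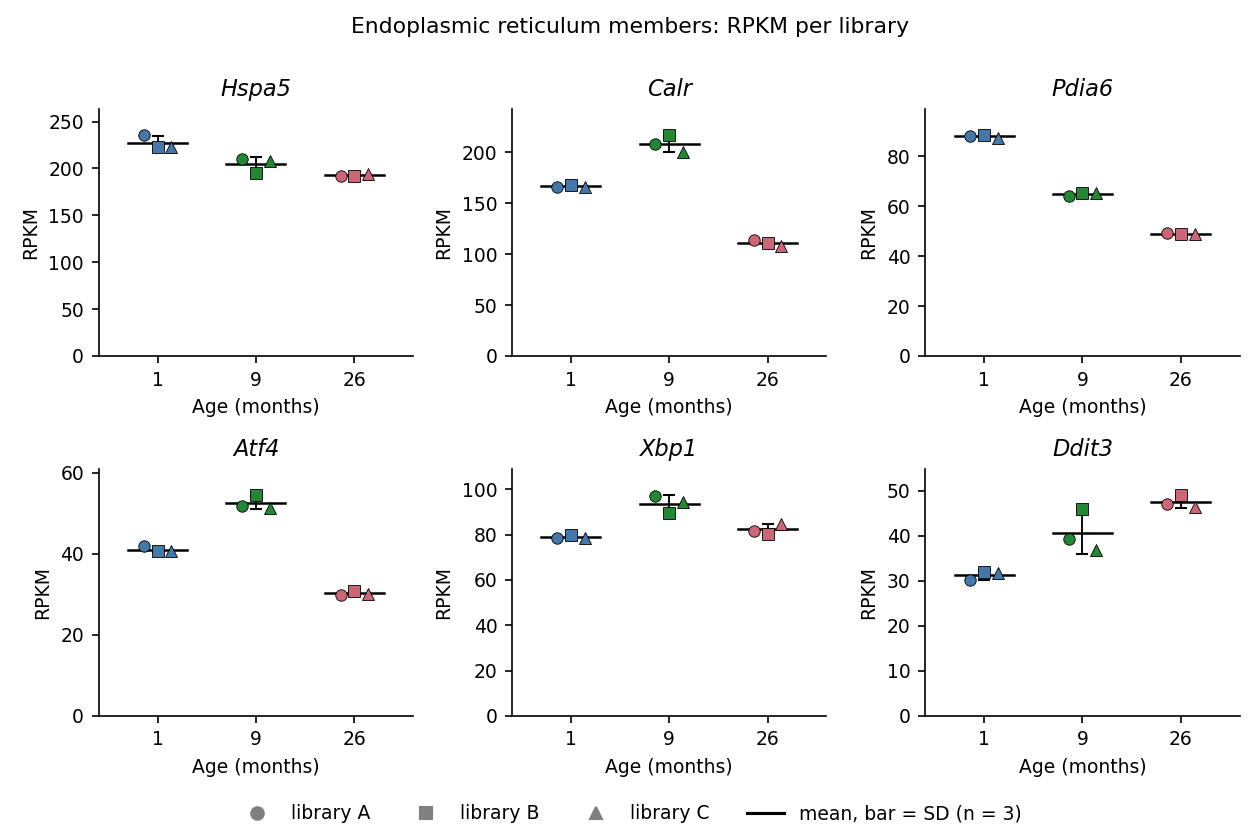
RPKM of 6 ER members in each library (points) at 1, 9 and 26 months, with the mean (line) and SD (bar, n = 3). Calr, Atf4 and Xbp1 are highest at 9 months, Hspa5 and Pdia6 are lower at each later age in the deposited values (for Hspa5 the sign against 1 month turns with quantile normalization), and Ddit3 is highest at 26 months with about 47.6 RPKM.

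Of the other ER members, Dnajb9 varied most between libraries at 9 months. Dnajb9, a J protein that IRE1 and XBP1 induce, was at 16.7 ± 0.996 RPKM at 26 months, against 25.9 ± 6.87 RPKM at 9 months and 14.4 ± 1.1 RPKM at 1 month. Its wide spread at 9 months came from library B (18.05 RPKM, against 29.1 and 30.6 RPKM in A and C). Without that library its log2 fold change of 0.81 at 9 against 1 month became 1.05, past the threshold, and with a Y-linked covariate that of -0.59 at 26 against 9 months became -1.23. Herpud1, which helps to remove misfolded proteins from the ER, was at 146.7 ± 1.07 RPKM at 26 months, against 135.2 ± 2.29 RPKM at 9 months and 108.0 ± 2.53 RPKM at 1 month. Dnajc3, the BiP cofactor p58IPK, had a log2 fold change of 0.07 at 26 against 9 months that turned negative with the Y-linked covariate and without library B at 9 months.

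Of 112 further genes of the same pathways, 111 were found in the table. Of 34 tested genes listed with the cytosolic class, 1 rose and 2 fell at 26 against 9 months, where 3.28% of all genes rose and 4.05% fell. Serpinh1, the collagen chaperone HSP47, was in that list as a heat shock protein but resides in the ER, so 1 of the 2 falls was of a cytosolic gene. Serpinh1 was at 31.4 ± 0.538 RPKM at 26 months, against 75.4 ± 4.99 RPKM at 9 months (log2 fold change -1.26), and the Hsp90 cofactor Chordc1 was at 13.7 ± 0.180 RPKM, against 29.7 ± 5.37 RPKM (log2 fold change -1.10). Fkbp5, the glucocorticoid-induced Hsp90 cofactor, rose to 7.21 ± 0.166 RPKM at 26 months, against 2.54 ± 0.0577 RPKM at 9 months (log2 fold change 1.47). Bag6, which guards newly made membrane proteins, rose at 9 against 1 month (9.98 ± 0.433 RPKM, against 2.72 ± 0.170 RPKM) and, with Fkbp5, at 26 against 1 month, so that the counts in those comparisons were 1 and 2 higher and 0 lower. Of all genes, 10.1% rose and 1.47% fell at 9 against 1 month, and 9.92% rose and 2.51% fell at 26 against 1 month.

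Of 46 related ER genes, 2 rose and 2 fell at 26 against 9 months, near the 3.28% and 4.05% of all genes. At 9 against 1 month 3 rose and 0 fell, against 10.1% and 1.47% of all genes. At 26 against 1 month 3 rose and 2 fell, against 9.92% and 2.51% of all genes. Manf, a secreted factor that ER stress induces, was at 10.6 ± 0.176 RPKM at 26 months, against 22.5 ± 0.494 RPKM at 9 months, and also fell against 1 month, with log2 fold changes of -1.08 and -1.42. Derl3, part of the ER export channel for misfolded proteins, fell in both as well (-1.26 and -1.25). Ppp1r15a (GADD34), the phosphatase subunit that restores protein synthesis, was at 36.4 ± 0.601 RPKM at 26 months, against 15.6 ± 0.788 RPKM at 9 months (log2 fold change 1.21), and Chac1 was at 2.51 ± 0.309 RPKM, against 1.18 ± 0.328 RPKM (1.06). Both rose against 1 month too, Ppp1r15a with a log2 fold change of 1.21. Atf3, also an immediate early gene, was at 1.23 ± 0.238 RPKM at 1 month, 4.28 ± 0.247 RPKM at 9 months and 7.51 ± 0.0382 RPKM at 26 months and was called at 9 and at 26 months against 1 month. Tmbim6 and Ppp1r15b rose at 9 against 1 month, with log2 fold changes of 1.29 and 1.01.

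Of 15 genes related to the chaperonin, the tubulin cofactor Tbcc rose at 26 against 9 months (43.65 ± 0.214 RPKM, against 17.7 ± 1.11 RPKM), and none was called in the other comparisons. Of 15 mitochondrial quality control genes, Atf5, a regulator of the mitochondrial stress response, was called, lower at 26 against 9 months (0.775 ± 0.0433 RPKM, against 1.77 ± 0.288 RPKM) and higher at 9 against 1 month, with none called at 26 against 1 month. Over all genes, 3.28% rose and 4.05% fell at 26 against 9 months, 10.1% and 1.47% at 9 against 1 month, and 9.92% and 2.51% at 26 against 1 month. The related lists as a whole had median log2 fold changes between -0.04 and 0.08 at 26 against 9 months, near the -0.03 of all genes.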

How the data were processed

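RNA was amplified with the SMARTer kit and made into libraries with Nextera chemistry for Illumina sequencing. Per the labels and the study's methods, the authors mapped reads to the mouse genome (mm10, GRCm38) in CLC Genomics Workbench, whose version is not given in the sources used here, and deposited 1 RPKM value per gene and library. The 36 database entries are 4 runs of each of 9 libraries, and every RPKM value is a multiple of 0.025, as means over 4 runs given to 1 decimal would be. The deposited table also holds the authors' group means, fold changes and p-values, which were not used. The labels give the oldest age used here, a notes sheet in the table writes a slightly later one, and the labels and the methods name different enzymes for dissociation.

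Genes with at least 0.1 RPKM in 3 libraries were tested with limma 3.58.1 (R 4.3.3, trended variance) on log2(RPKM + 0.1), with 1 mean per age over 9 libraries and Benjamini-Hochberg adjustment. Fold changes are on that scale, which understates those of low genes. The script was tested on simulated data. Tables and plots used Python 3.11.15, pandas 2.3.3, numpy 2.4.6 and matplotlib 3.10.9. Values per library are given for called members whose mean reached 1 RPKM, for Hspa5, Hspa8, Hsp90ab1, Hspd1, Hspe1, Tcp1, Xbp1 and Ddit3, and for Ern1. Of the related genes, up to 4 called ones per list and comparison were named, with means and SD or fold changes. Ern1, Calr, Canx, Atf4, Pdia6, Hsph1 and the other members named with values were singled out after their values were seen. The members and lists were chosen with earlier results of these data known. Promoter windows and gene positions are of GRCm38, and the windows matched members by symbol. Sensitivity was examined under 22 alternatives, of which 9 left out a library.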

Additional observations from a re-analysis of the deposited data

How the results depend on the processing

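In the order of late life (26 against 9 months), middle age (9 against 1 month) and the whole span, called members numbered 6, 4 and 1. Without a fold threshold the counts were 32, 35 and 36. At 26 against 1 month the count was 0 with quantile normalization and 3 (Hspb1, Hspe1 and Pdia6) with median of ratios scaling, and both settings took the middle age count to 3 by the loss of Hspa1a. Equal counts did not always hold the same genes. With the Y-linked covariate the late-life count stayed at 6 but lost Hspb1 and Dnajb1 and gained Dnajb4 and Dnajb9, and over the whole span Hspe1 took the place of Hspb1. With the length trend removed Pdia6 took the place of Hspb1 over the whole span. Leaving out 1 library at a time gave 5 to 6, 4 to 5 and 1, and the values that differed came without library B at 9 months, when Hspb1 was lost from the first comparison and Dnajb9 gained in the second. Averaging near-identical libraries left 5 samples, with only 1 at 26 months. That age then had no spread of its own, so counts of called members from that fit are not given. The library letters did not pair the samples, with same-letter correlations between -0.05 and 0.23, and the letter as a replicate block gave 6, 4 and 1. A pseudocount of 1 gave 4, 3 and 1 members. Among all genes it gave 136 higher and 175 lower in late life, 408 and 45 in middle age and 452 and 112 over the whole span, where 519 and 640, 1594 and 233, and 1568 and 396 were called as fitted. A pseudocount of 0.01 gave 783 and 975 in late life. No member's called value changed sign. The cause of these shifts was not tested. Depth is unknown, so the precision of low genes such as Ern1 cannot be stated.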
